A study of Mus musculus with 16 samples.

Results

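Genes that mark classes of GABAergic interneurons were examined in the hippocampus of mice with or without the potassium channel gene Kcna1, on 2 diets. The set held 8 genes, Pvalb, Lhx6, Lamp5, Ndnf, Reln, Calb2, Cnr1 and Erbb4, chosen by name from the 49315 genes of the deposited count table. All 8 were found once in the table and all 8 passed the filter on low counts, which left 17469 genes for testing. RNA sequencing was done on 16 libraries in 4 groups of 4: wild type on a standard diet, Kcna1 knockout on a standard diet, wild type on a ketogenic diet and Kcna1 knockout on a ketogenic diet. The ketogenic diet replaces most carbohydrate with fat, and mice without Kcna1 have spontaneous seizures. The labels gave no age, sex, strain or knockout allele, no length of the diet and no statement on pooling of animals. The labels name an animal's hippocampus for each library, and p-values measure only the spread between these libraries.

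Interneurons are the local inhibitory neurons of the hippocampus; they release GABA onto principal cells and onto each other. They are sorted into classes by where they are born in the embryo and by the proteins they carry. Cells from the medial ganglionic eminence depend on the transcription factor Lhx6, and many of them, the fast-spiking basket cells, carry the calcium-binding protein parvalbumin. Neurogliaform cells carry Lamp5, Ndnf or reelin, cells that contact other interneurons carry calretinin (Calb2), and a basket cell class with cholecystokinin carries the cannabinoid receptor Cnr1. Several of these genes are also expressed by other cells. Calretinin is also made by dentate mossy cells and many thalamic neurons, reelin by Cajal-Retzius cells, and Cnr1 at lower levels by principal cells. The libraries are of whole tissue, so fewer cells of a type and less RNA per cell cannot be told apart.

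Total counts ranged from 13440230 to 22309504 per library, and in each pair within a group the counts differed by more than sampling noise (chi-square of at least 3.62 per gene). The highest value was 22.9, in the knockout on ketogenic diet. In wild type on ketogenic diet the pairs with KC846L were at 10.4 to 13.5 and the other pairs at 3.67 to 5.09. Lists of markers for dentate granule cells (summed level 421 to 749 CPM, counts scaled to a common library size), CA1 (348 to 599 CPM) and CA3 pyramidal cells (781 to 1148 CPM) were expressed in every library. Kcna1 measured 107 to 130.1 CPM in the 8 wild type libraries and 43.4 to 47.2 CPM in 7 of the 8 libraries labelled knockout. The library labelled knockout KC888LL, on standard diet, lay between them at 82.0 CPM. Its Kcna1 level does not match that of the other libraries with this label, and whether its genotype is as labelled is not known. It was kept under its label, so means, overlaps and fits include it unless stated. Y-linked genes were expressed in 1 of 4 wild type and 2 of 4 knockout libraries on standard diet, and in 1 of 4 wild type and 0 of 4 knockout libraries on ketogenic diet. Gfap, a protein of reactive astrocytes, spanned 288 to 2327 CPM in the knockout libraries and 294 to 390.4 CPM in wild type.

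The promoter sequences of the members were taken from RefSeq (GRCm38.p6), which held a window for 6 of the 8 genes. The windows of Reln and Erbb4 are shown because the slopes of these members on Gfap in the knockout, described further on, differed in sign. Neither slope was called (edgeR, adjusted p = 0.114 and 0.0993). In wild type both were negative and not called, at -1.04 ± 0.29 (SE) for Reln and -0.58 ± 1.12 for Erbb4. Lamp5, Pvalb and Lhx6, which also have windows, had negative slopes in the knockout too. A relation between promoter sequence and slope was not tested. Each line gives the 250 bases before the gene's start, read 5′ to 3′ on the gene's strand, with each CpG in capitals. The Reln window lies at chr5:22344706-22344955 on the minus strand and the Erbb4 window at chr1:69108060-69108309 on the minus strand.
Reln: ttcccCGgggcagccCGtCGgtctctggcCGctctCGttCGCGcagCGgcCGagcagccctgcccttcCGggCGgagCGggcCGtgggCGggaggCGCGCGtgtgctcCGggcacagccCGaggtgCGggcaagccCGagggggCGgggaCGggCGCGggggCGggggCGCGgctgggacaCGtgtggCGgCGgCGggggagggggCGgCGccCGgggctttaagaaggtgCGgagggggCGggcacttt
Erbb4: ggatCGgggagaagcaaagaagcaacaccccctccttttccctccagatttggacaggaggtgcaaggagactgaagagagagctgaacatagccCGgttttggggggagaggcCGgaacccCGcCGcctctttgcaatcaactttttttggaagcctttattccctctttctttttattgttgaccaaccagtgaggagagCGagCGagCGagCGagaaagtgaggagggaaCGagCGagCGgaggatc
The Reln window held 37 CpG and was 80.0% G or C, and 97.8% of the 32851 RefSeq windows of this length held fewer CpG. The Erbb4 window held 12 CpG, against a median of 6 over all windows. The letters CACGTG, an E-box that reads the same on both strands, occurred in the Reln window and in 6.02% of all windows, and did not occur in the Erbb4 window.

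Levels were compared between members after division by exon length. The median over the 16 libraries was 41.6 CPM per kb of exon for Cnr1, 20.5 for Pvalb, 17.3 for Calb2, 8.38 for Lamp5, 7.04 for Erbb4, 5.33 for Reln, 4.80 for Ndnf and 4.05 for Lhx6. Cnr1 was above Pvalb in 16 of 16 libraries. Neighbours further down this order changed places in some libraries: Pvalb was above Calb2 in 10 of 16, Calb2 above Lamp5 in 14, Lamp5 above Erbb4 in 12, Erbb4 above Reln in 11, Reln above Ndnf in 11 and Ndnf above Lhx6 in 14. The plot of levels per exon length shows that the ranges of all members below Cnr1 overlapped with that of a neighbour. Calb2 varied most, with a highest library 4.02 times its lowest, and Cnr1 least, at 1.17 times.

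**Figure D1:**
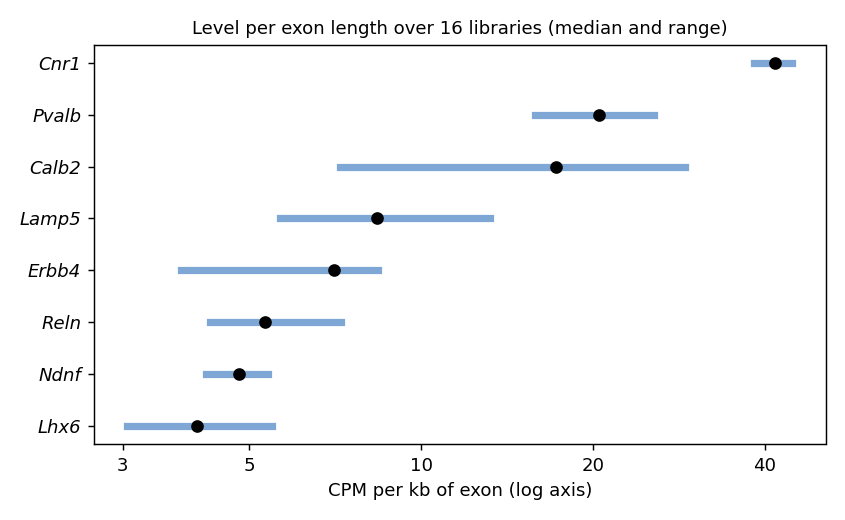
Level of each of the 8 genes in CPM per kb of exon on a log axis, with the median (black point) and the range (blue bar) over 16 libraries. Cnr1, with a median of 41.6 CPM per kb, lay above all other members in every library, and Calb2 had the widest range.

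The gene products with a role inside the cell come first. Pvalb (ENSMUSG00000005716, chromosome 15, 78191114 to 78206400, minus strand, GRCm38) encodes parvalbumin, a calcium buffer of fast-spiking cells. It measured 16.5, 19.8, 18.8 and 21.6 CPM in wild type on standard diet and 21.4, 20.3, 21.4 and 22.5 CPM in the knockout on that diet. On the ketogenic diet it measured 24.1, 22.4, 24.8 and 20.2 CPM in wild type and 18.9, 24.1, 18.2 and 26.7 CPM in the knockout. The 4 groups overlapped, and the knockout on ketogenic diet was the most spread, with a coefficient of variation of 18.5%. Lhx6 (ENSMUSG00000026890, chromosome 2, 36081953 to 36105408, minus strand) encodes the transcription factor that sets the fate of medial ganglionic eminence interneurons. In wild type it measured 19.8, 18.2, 22.2 and 19.1 CPM on standard diet and 21.9, 21.3, 22.0 and 17.1 CPM on ketogenic diet. In the knockout it measured 15.4, 14.7, 21.3 and 15.98 CPM on standard diet and 26.4, 22.1, 19.0 and 19.1 CPM on ketogenic diet. Of the knockout libraries on standard diet, 3 lay below all other libraries and the fourth, KC888LL, lay within the wild type range. Lhx6 shares 104 exon bases with Gm27953, which had 24 counts in all libraries together.

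Calb2 (ENSMUSG00000003657, chromosome 8, 110137502 to 110168210, minus strand) encodes calretinin, another calcium buffer. It measured 36.6, 31.5, 40.4 and 19.1 CPM in wild type on standard diet, and 46.6, 48.7, 50.5 and 50.1 CPM in the knockout on that diet. On the ketogenic diet it measured 23.9, 23.4, 26.2 and 12.6 CPM in wild type and 28.6, 27.1, 27.3 and 34.3 CPM in the knockout. The 4 knockout libraries on standard diet lay above all 12 others, as did those of 0.292% of the tested genes. The lowest wild type library was KC900RLL on standard diet and KC846L on ketogenic diet. The coefficient of variation was 3.56% in the knockout on standard diet and 29.1% in wild type on that diet.

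Among the secreted and surface proteins, Reln (ENSMUSG00000042453, chromosome 5, 21884454 to 22344702, minus strand) encodes reelin, an extracellular protein that positions neurons in development and acts on synapses in the adult. It measured 124, 106, 113 and 155 CPM in wild type on standard diet and 167, 141, 131 and 169.6 CPM in the knockout on that diet. On the ketogenic diet it measured 118, 112, 114 and 101 CPM in wild type and 169.8, 127, 172 and 126 CPM in the knockout. Every knockout library was above every wild type library except KC900RLL, which lay above 4 of the 8 knockout libraries. The gene shares 246 exon bases with the antisense gene Gm10475, which had 16 counts in all libraries together. Ndnf (ENSMUSG00000049001, chromosome 6, 65671590 to 65712326, plus strand), a secreted factor of neurogliaform cells, measured 45.7, 48.1, 42.5 and 46.1 CPM in wild type and 54.5, 47.7, 52.6 and 51.3 CPM in the knockout on standard diet. On the ketogenic diet it measured 51.2, 49.0, 49.9 and 47.1 CPM in wild type and 47.0, 49.8, 52.2 and 47.6 CPM in the knockout. Wild type on standard diet was the lowest group, and 1 knockout library on that diet lay within its range. Lamp5 (ENSMUSG00000027270, chromosome 2, 136052239 to 136069917, plus strand) encodes a membrane protein of vesicles in GABAergic neurons. In wild type it measured 26.5, 22.6, 24.5 and 38.7 CPM on standard diet and 23.2, 24.8, 24.7 and 30.3 CPM on ketogenic diet. In the knockout it measured 20.5, 18.3, 25.9 and 18.01 CPM on standard diet and 16.6, 25.7, 19.0 and 25.1 CPM on ketogenic diet. On each diet some knockout libraries were below all wild type libraries and the others within their range.

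Of the receptors, Cnr1 (ENSMUSG00000044288, chromosome 4, 33924593 to 33948831, plus strand) encodes the cannabinoid receptor that damps transmitter release. It measured 268, 255, 273 and 261 CPM in wild type and 247, 251, 279.8 and 272 CPM in the knockout on standard diet, and 271, 276, 266 and 263 CPM in wild type and 288, 269, 285 and 254 CPM in the knockout on ketogenic diet. Erbb4 (ENSMUSG00000062209, chromosome 1, 68032186 to 69108059, minus strand) encodes a neuregulin receptor that shapes the synapses onto interneurons. It measured 94.7, 81.9, 84.8 and 90.4 CPM in wild type and 85.0, 87.2, 104 and 86.8 CPM in the knockout on standard diet. On the ketogenic diet it measured 99.4, 93.8, 86.1 and 46.9 CPM in wild type and 69.8, 88.1, 83.8 and 91.8 CPM in the knockout. For both genes the 4 groups overlapped. The lowest Erbb4 library was KC846L, the library that was also lowest in Calb2.

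**Figure D2:**
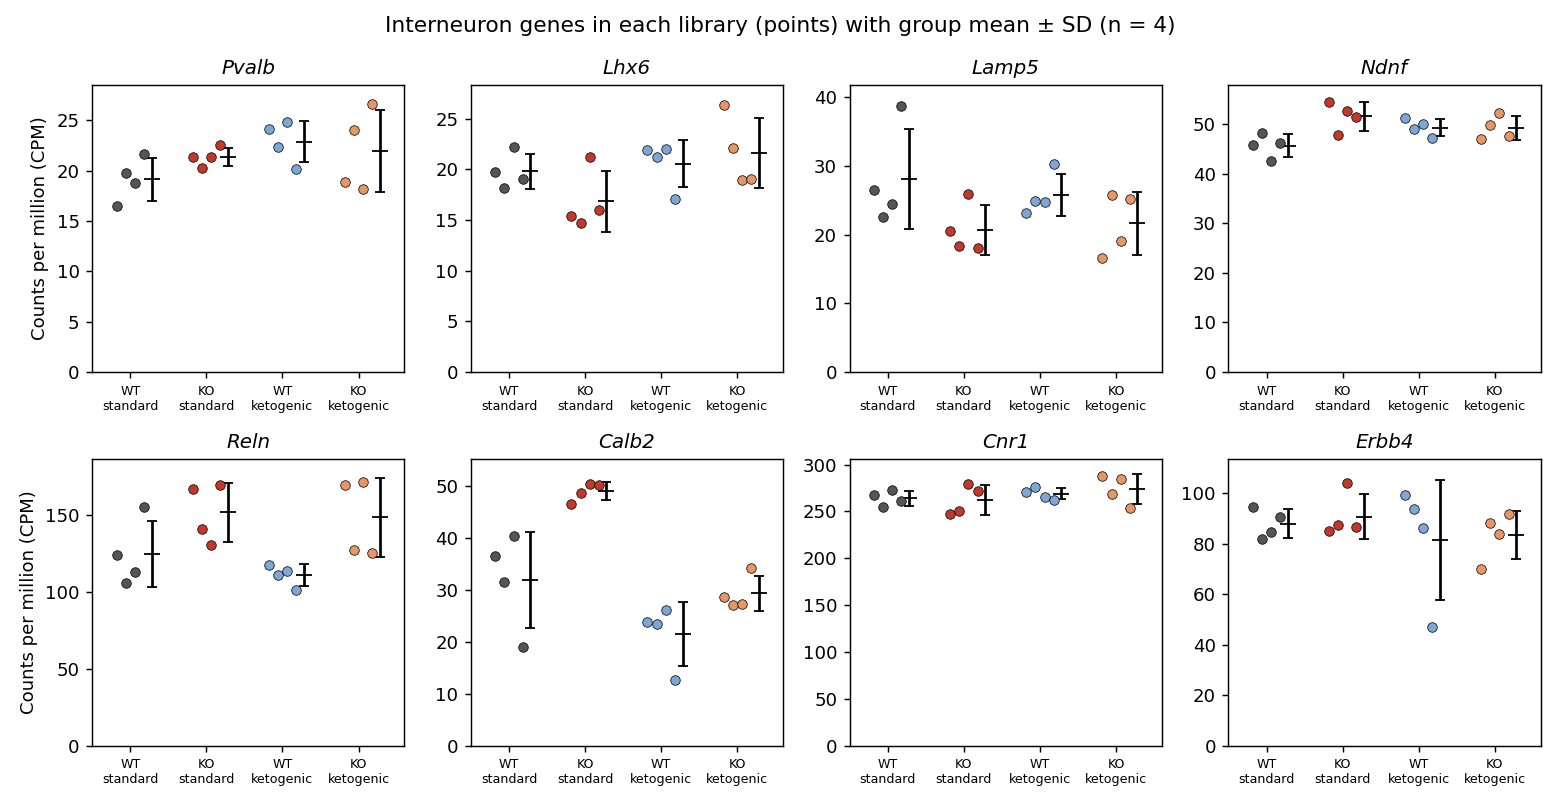
CPM of the 8 genes (1 panel each, linear axes from 0) in wild type (WT) and Kcna1 knockout (KO) on standard and ketogenic diet; points are libraries and bars the group mean ± SD, n = 4. Calb2 separates the knockout on standard diet, from 46.6 CPM, from all other libraries, while Cnr1 and Erbb4 overlap in all groups.

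The first comparison asks whether the loss of Kcna1 on standard diet goes with another level of these genes. Calb2 was higher in the knockout, 49.0 ± 1.74 CPM (SD, n = 4) against 31.9 ± 9.28 CPM (SD, n = 4) in wild type. Reln measured 152 ± 19.2 CPM against 125 ± 21.6 CPM, Ndnf 51.5 ± 2.86 CPM against 45.6 ± 2.34 CPM, and Lamp5 20.7 ± 3.66 CPM against 28.1 ± 7.27 CPM. None of these differences was called: 0 of 8 members had an adjusted p under 0.05 with edgeR's quasi-likelihood test, where 0.00572% of all tested genes did, and 0 members were called by DESeq2, which called 1.03% of tested genes, or by limma-voom, which called 0.0114%. Without KC888LL edgeR called 5.73% of tested genes and 0 members. At an unadjusted p under 0.05 there were 4 members, where 14.3% of all tested genes were under it. The log2 fold changes were 0.62 ± 0.22 (SE) for Calb2 (edgeR, adjusted p = 0.236), 0.29 ± 0.13 for Reln (adjusted p = 0.328), 0.18 ± 0.06 for Ndnf (adjusted p = 0.212) and -0.44 ± 0.18 for Lamp5 (adjusted p = 0.281). The groups did not overlap for 1 of 8 members, Calb2, against 5.86% of tested genes. The other members had log2 fold changes of -0.23 ± 0.13 for Lhx6, 0.16 ± 0.11 for Pvalb, 0.04 ± 0.17 for Erbb4 and -0.01 ± 0.06 for Cnr1, which turned to 0.0077 with upper-quartile factors. The median over the members was 0.10, against 0.0044 over all tested genes. Without the wild type library KC900RLL the values were 0.44 for Calb2 and -0.24 for Lamp5, and without KC888LL they were 0.60 and -0.57. Lhx6 was at -0.37 without KC888LL (edgeR, adjusted p = 0.0766) and at -0.09 without the libraries that express Y-linked genes. The latter fit kept only 2 knockout libraries on standard diet, KC893RL and KC888LL, with Lhx6 at 15.98 and 21.3 CPM. KC888LL is the library whose Kcna1 level does not match its label. In this contrast 6 of 6 microglia markers were higher in the knockout, 5 with an unadjusted p under 0.05 and 0 called by edgeR, with sums of 253 to 506 CPM against 240.4 to 276 CPM in wild type. The sums were 500 and 506 CPM in KC872RL and KC873RR, the knockout libraries on this diet that express Y-linked genes. KC888LL and KC893RL, at 253 and 260 CPM, lay within the wild type range. The 3 reactive astrocyte markers Gfap, Vim and Serpina3n were all higher with an unadjusted p under 0.05 and 0 were called by edgeR, with a median log2 fold change of 1.72 and sums of 420.0 to 2832 CPM against 355 to 470.2 CPM. Of 7 dentate granule markers 5 were lower, with a median of -0.35 over all 7, and 3 of the 7 had an unadjusted p under 0.05. The smallest p was that of C1ql2, which was higher in the knockout, at 38.4 to 81.1 CPM against 31.2 to 34.3 CPM. Of 6 thalamic markers 4 were higher, with a median of 0.32 over all 6. Of 5 CA3 markers 4 were lower, with a median of -0.28 over all 5. In each of these 2 lists 2 markers had an unadjusted p under 0.05 and edgeR called 0. The part of these cell types in the members' values was not tested.

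In the same contrast on ketogenic diet, Reln had the smallest p of the members. Wild type was at 111 ± 6.93 CPM (SD, n = 4) and the knockout at 149 ± 25.7 CPM (SD, n = 4), and its log2 fold change, 0.42 ± 0.13 (SE), did not pass (edgeR, adjusted p = 0.404). Calb2 measured 29.4 ± 3.36 CPM against 21.5 ± 6.08 CPM, with a log2 fold change of 0.46 ± 0.22 (edgeR, adjusted p = 0.554). Without KC846L this value was 0.26. For these 2 members the knockout and wild type libraries did not overlap, as for 3.98% of tested genes. Of the 8 members, 0 were called by edgeR, DESeq2 or limma-voom, where these called 0.0172%, 0.305% and 0.0286% of all tested genes, and 1, Reln, had an unadjusted p under 0.05, where 9.22% of tested genes did. Lamp5 had a log2 fold change of -0.26 ± 0.18, or -0.17 without KC846L. Pvalb, Lhx6, Erbb4, Cnr1 and Ndnf lay between -0.06 and 0.07. The median was 0.03. In this contrast all 10 oligodendrocyte markers were lower in the knockout, 5 with an unadjusted p under 0.05, as were all 5 blood markers, 4 of them with such a p, and edgeR called 0 of either list. The median log2 fold changes were -0.40 and -1.64. All 3 reactive astrocyte markers were higher, 2 with an unadjusted p under 0.05 and 0 called, with a median of 1.38 and sums of 359 to 2326 CPM against 371 to 408 CPM. Their part in the members' values was not tested.

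Averaged over both diets, which sets 8 knockout against 8 wild type libraries, the log2 fold change was 0.35 ± 0.09 (SE) for Reln (edgeR, adjusted p = 0.107), 0.54 ± 0.15 for Calb2 (adjusted p = 0.140) and -0.35 ± 0.13 for Lamp5 (adjusted p = 0.201). Ndnf was at 0.09, Lhx6 at -0.08, Pvalb at 0.05, Erbb4 at 0.04 and Cnr1 at 0.0080. Lhx6 was at -0.15 without KC888LL (edgeR, adjusted p = 0.304) and at -0.19 without KC888LL and KC846L (adjusted p = 0.185). With edgeR 0 of 8 members were called, where 0.0973% of tested genes were, and 3 had an unadjusted p under 0.05, where 15.8% of tested genes did. DESeq2 called 2 members, Reln (adjusted p = 0.0159) and Calb2 (adjusted p = 0.0185), and 2.38% of tested genes, and limma-voom called 0 members and 0.218% of tested genes. Without KC888LL, edgeR called Reln at 0.38 (adjusted p = 0.0278) and 4.96% of tested genes. The value for Reln in 25 alternatives with a test stayed between 0.31 and 0.42 and its adjusted p between 0.0159 and 0.814. With the 4 libraries that express Y-linked genes left out, the values were 0.32 for Reln, 0.50 for Calb2 and -0.27 for Lamp5, and 0 members were called, with 0.00563% of tested genes. In this contrast 3 of 3 reactive astrocyte markers were higher in the knockout (median log2 fold change 1.56), 3 with an unadjusted p under 0.05. Of 7 dentate granule markers 4 were lower (median of all 7, -0.24), and 5 of the 7 had such a p. The smallest of these was that of C1ql2, which was higher in the knockout. All 5 blood markers were lower (median -0.57), 4 with such a p. All 10 oligodendrocyte markers (median -0.20) and all 5 CA1 markers (median -0.21) were lower, 3 and 2 with such a p. Of all these markers edgeR called 0. Their part in the members' values was not tested.

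**Figure D3:**
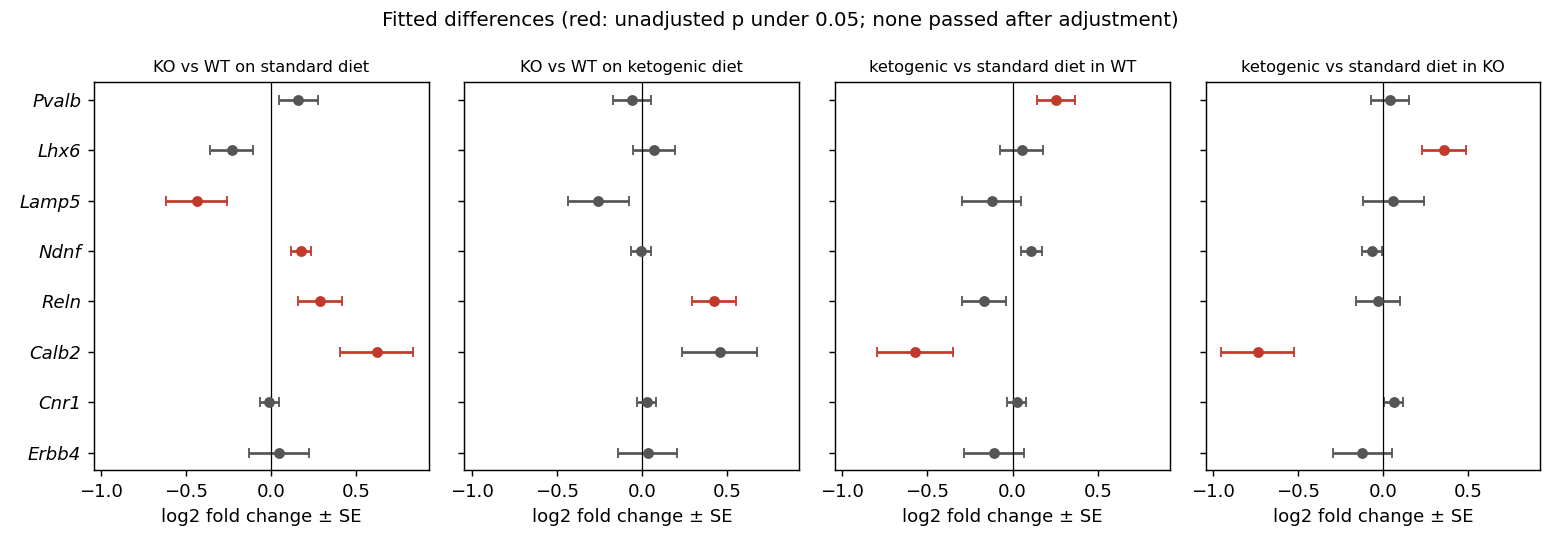
Log2 fold change ± SE of each member in 4 contrasts, fitted with edgeR over 16 libraries; red points had an unadjusted p under 0.05 and 0 passed after adjustment over all 17469 tested genes. Calb2 has the largest values, from -0.74 with the ketogenic diet in the knockout to 0.62 with the knockout on standard diet.

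The diet contrasts ask whether the ketogenic diet goes with another level of these genes within a genotype. Calb2 was lower on ketogenic diet in both genotypes. In the knockout it measured 29.4 ± 3.36 CPM against 49.0 ± 1.74 CPM on standard diet, a log2 fold change of -0.74 ± 0.22 (SE) that did not pass with edgeR over all groups (adjusted p = 0.111). DESeq2 called it (adjusted p = 0.0122) along with 4.2% of tested genes, as did edgeR on the knockout libraries alone (adjusted p = 0.00833), where 0.0535% of tested genes were called. It was not called by limma-voom, which called 0.836% of tested genes, with Xist as a covariate (-0.87, edgeR, adjusted p = 0.255) or without the libraries that express Y-linked genes (-0.78, adjusted p = 0.504). The 4 libraries on each diet did not overlap for 1 of 8 members, Calb2, as for 6.39% of tested genes. Lhx6 was the other member with an unadjusted p under 0.05, at 0.36 ± 0.13 (edgeR, adjusted p = 0.162). Of the other members Erbb4 was at -0.12, Ndnf at -0.07, Reln at -0.03, Pvalb at 0.04, and Lamp5 and Cnr1 at 0.06. Without KC888LL, Lhx6 was called at 0.49 (edgeR, adjusted p = 0.0221), as were 6.18% of tested genes. It was at 0.22 with Xist as a covariate (edgeR, adjusted p = 0.558) and at 0.21 without the libraries that express Y-linked genes (adjusted p = 0.887). The latter fit kept only KC893RL and KC888LL of the knockout libraries on standard diet. In the knockout 0 of 8 members were called over all groups, where 1.16% of tested genes were, and 2 had an unadjusted p under 0.05, where 16.9% of tested genes did.

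Markers of oligodendrocytes and of blood fell with the diet in the knockout, where Calb2 was lower. Of 10 oligodendrocyte markers, 8 were called lower, and their summed level was 2021 to 3807 CPM on ketogenic diet and 5251 to 5806 CPM on standard diet. Of 5 blood markers, 4 were called lower, with sums of 17.4 to 32.5 CPM on ketogenic and 65.8 to 113 CPM on standard diet. All 6 microglia markers were lower with an unadjusted p under 0.05 and 0 were called by edgeR, with sums of 225 to 238 CPM and 253 to 506 CPM. On standard diet KC872RL and KC873RR were at 500 and 506 CPM, and KC888LL and KC893RL at 253 and 260 CPM. All 6 thalamic markers were lower, 1 of them called, and their sum was 49.4 to 89.3 CPM on ketogenic diet and 64.9 to 127 CPM on standard diet. Mossy cell markers summed to 129 to 164 CPM on ketogenic and 122 to 135 CPM on standard diet, with 0 of 4 called. Cajal-Retzius markers summed to 12.04 to 16.6 CPM and 12.3 to 16.05 CPM, with 0 of 5 called, and 2 of them were under 1 CPM in all knockout libraries on ketogenic diet. The part of these cell types in the Calb2 values was not tested.

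In wild type, Calb2 measured 21.5 ± 6.08 CPM (SD, n = 4) on ketogenic and 31.9 ± 9.28 CPM (SD, n = 4) on standard diet, a log2 fold change of -0.57 ± 0.22 (SE) with edgeR (adjusted p = 0.827). It was -0.38 without KC846L, -0.76 without KC900RLL and -0.31 without the libraries that express Y-linked genes. Pvalb was at 0.26 ± 0.11 (edgeR, adjusted p = 0.885), Ndnf at 0.11, Lhx6 at 0.05, Cnr1 at 0.02, Erbb4 at -0.11, Lamp5 at -0.12 and Reln at -0.17. Reln was at -0.04 without KC900RLL, and Lhx6 at 0.13 without KC846L. Of the members, 0 of 8 were called by edgeR, DESeq2 or limma-voom, where these called 0.0114%, 0.0687% and 0% of tested genes, and 2 had an unadjusted p under 0.05, where 5.46% of tested genes did. The diets overlapped for all 8 members, while 4.88% of tested genes did not overlap. Averaged over genotypes, Calb2 was at -0.66 ± 0.15 (edgeR, adjusted p = 0.0699), and 0 of 8 members were called, where 0.899% of tested genes were. Here 2 members, Calb2 and Lhx6, had an unadjusted p under 0.05, where 14.4% of tested genes did. Lhx6 was at 0.21 ± 0.09 (edgeR, adjusted p = 0.303), and the other 6 members lay between -0.12 and 0.15. DESeq2 called Calb2 (adjusted p = 0.000855) and 2.47% of tested genes, as did limma-voom (adjusted p = 0.0399), with 0.841%, and so did edgeR without KC900RLL, at -0.75 (adjusted p = 0.00741), with 1.12%. In 25 alternatives with a test the value stayed between -0.75 and -0.55 and its adjusted p between 0.000855 and 0.441. In the same averaged contrast 9 of 10 oligodendrocyte and 3 of 5 blood markers were called lower by edgeR. All 6 thalamic and all 6 microglia markers were also lower, 3 and 5 with an unadjusted p under 0.05 and 0 called. The median log2 fold changes of these 2 lists were -0.33 and -0.35, and the highest microglia sums were those of KC872RL and KC873RR. In wild type alone all 10 oligodendrocyte markers were lower with an unadjusted p under 0.05 and 0 were called, with sums of 3490.1 to 4437 CPM on ketogenic and 4219 to 6566 CPM on standard diet. The part of all these cell types in the values of Calb2 was not tested.

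The interaction asks whether the diet contrast differs between genotypes. For Calb2 it was -0.16 ± 0.31 (SE) on the log2 scale (edgeR, adjusted p = 0.928), so a difference between the diet contrasts in the 2 genotypes was not detected. Lhx6 was at 0.30, Pvalb at -0.22, Lamp5 at 0.18, Reln at 0.13, Cnr1 at 0.04 and Erbb4 at -0.01. Without KC900RLL, Reln was at 0.013. Ndnf had the smallest p, at -0.18 ± 0.08 (edgeR, adjusted p = 0.664). With edgeR, DESeq2 and limma-voom 0 of 8 members were called, where these called 0%, 0.0401% and 0% of tested genes, and 1, Ndnf, had an unadjusted p under 0.05, where 7.48% of tested genes did.

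Gad1 and Gad2, the enzymes that make GABA, and Slc32a1, its vesicular transporter, served as a measure of GABAergic neurons in general. Gad2 measured 173, 200.3, 188 and 168 CPM in wild type and 261, 221, 217 and 258 CPM in the knockout on standard diet, and 183, 182, 165 and 159 CPM in wild type and 289, 180.3, 268 and 210.02 CPM in the knockout on ketogenic diet. The genotypes did not overlap on standard diet and overlapped through 1 knockout library, KC916RRL, on ketogenic diet. Averaged over diets, the log2 fold change was 0.43 ± 0.08 (SE) for Gad2 (edgeR, adjusted p = 0.0689), 0.21 ± 0.06 for Gad1 (adjusted p = 0.102) and 0.15 ± 0.07 for Slc32a1 (adjusted p = 0.274). DESeq2 called Gad2 (adjusted p = 0.000498) and Gad1 (adjusted p = 0.0259), limma-voom called Gad2 (adjusted p = 0.0486), and edgeR without KC888LL called both (adjusted p = 0.0118 and 0.0402). Of the 9 general GABAergic genes, edgeR over all 16 libraries called 0 in this contrast, 3 were higher and 6 lower in the knockout, with a median log2 fold change of -0.08 against 0.01 over all tested genes.

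The members were also set against the mean log2 CPM of Gad1, Gad2 and Slc32a1 within each library, without a test. On this scale Calb2 was at -1.98 ± 0.12 (SD, n = 4) in the knockout and -2.42 ± 0.47 in wild type on standard diet. Reln was at -0.35 ± 0.14 and -0.42 ± 0.32 on that diet and at -0.42 ± 0.12 and -0.54 ± 0.04 on ketogenic diet, so that the genotypes overlapped on each diet. Cnr1 was at 0.44 ± 0.12 in the knockout and 0.68 ± 0.13 in wild type on standard diet, and at 0.48 ± 0.14 and 0.74 ± 0.05 on ketogenic diet. Lamp5 was at -3.23 ± 0.28 in the knockout and -2.59 ± 0.41 in wild type on standard diet. Calb2, Reln and Lamp5 kept the sign of their CPM difference. The genotypes also overlapped in Calb2 on each diet, unlike in CPM. On standard diet 3 members that were higher in CPM in the knockout were lower on this scale: Ndnf at -1.91 against -1.86, Pvalb at -3.17 against -3.11 and Erbb4 at -1.09 against -0.91. The mean log2 CPM of the 3 reference genes was itself higher in the knockout, 7.59 against 7.37 on standard diet and 7.62 against 7.33 on ketogenic diet. These 3 were the genes of the general GABAergic list that were higher averaged over diets, and the other 6 were lower, and other reference genes were not tried. Cnr1 was lower in the knockout on this scale, while its CPM was 262 ± 16.1 in the knockout and 264 ± 8.01 in wild type on standard diet.

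Other genes of the interneuron classes were counted from lists that were chosen with earlier results of these data known. Of 18 tested genes of parvalbumin and somatostatin cells, edgeR called 0 in any of the 7 contrasts. The knockout had 12 higher and 6 lower on standard diet and 9 higher and 9 lower on ketogenic diet, and the diet in the knockout had 5 higher and 13 lower. Npy, a peptide of interneurons that granule cells also make after seizures, measured 15.2, 15.1, 19.1 and 19.1 CPM in wild type and 153, 42.4, 18.3 and 91.2 CPM in the knockout on standard diet. Its log2 fold change there was 2.16 ± 0.65 (SE, edgeR, adjusted p = 0.207), which DESeq2 called (adjusted p = 0.0439) and edgeR called without KC888LL (adjusted p = 0.0325). Averaged over diets it was 1.81 ± 0.46 (edgeR, adjusted p = 0.115), which DESeq2 called (adjusted p = 0.00496). Of 14 tested genes of the Vip, cholecystokinin and neurogliaform classes, edgeR over all 16 libraries called 0 between genotypes. Cck, the cholecystokinin gene, which principal cells also express, measured 199, 181, 223 and 218 CPM in wild type and 126, 129, 195 and 131 CPM in the knockout on standard diet. Only KC888LL overlapped with wild type, and the log2 fold change was -0.50 ± 0.12 (edgeR, adjusted p = 0.192), or -0.68 without KC888LL (adjusted p = 0.000372). DESeq2 called Cck on standard diet (adjusted p = 0.0188) and averaged over diets (adjusted p = 0.000645), and limma-voom called it averaged over diets (adjusted p = 0.0371).

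One gene of the interneuron class lists passed the edgeR test of diet. Npas1, a transcription factor of caudal ganglionic eminence interneurons, rose on ketogenic diet in the knockout by 0.41 ± 0.10 on the log2 scale (SE, edgeR, adjusted p = 0.0429) and, averaged over genotypes, by 0.31 ± 0.07 (edgeR, adjusted p = 0.0330). It measured 15.7, 18.1, 19.5 and 17.1 CPM in the knockout on standard diet and 26.3, 23.9, 21.9 and 21.6 CPM on ketogenic diet, with no overlap. The call in the knockout was lost with limma-voom (adjusted p = 0.0546), on the knockout libraries alone (adjusted p = 0.175), with Xist as a covariate (adjusted p = 0.219) and without KC872RL (adjusted p = 0.182), KC873RR (0.106), KC893RL (0.0810), KC913RR (0.117) or KC916RRL (0.0838). It was weakest without the libraries that express Y-linked genes (edgeR, adjusted p = 0.671). The averaged call was lost with Xist as a covariate (adjusted p = 0.0669), without the libraries that express Y-linked genes (adjusted p = 0.528) and in 11 fits that left out 1 library (adjusted p from 0.0503 to 0.0954).

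The partners of the receptors and of reelin were counted in the same way. Of 7 genes of neuregulin and ErbB signalling, 7 of endocannabinoid synthesis and breakdown and 3 of reelin reception and relay, edgeR called 0 in any of the 7 contrasts. With the knockout averaged over diets, 2 of 7, 5 of 7 and 1 of 3 had an unadjusted p under 0.05, against 15.8% of all tested genes. The median log2 fold changes were 0.03, -0.10 and 0.06.

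Because Gfap differed among the knockout libraries, the members were related to it within the knockout, in an edgeR fit over the 8 libraries with diet as a term. This fit was chosen after the values were seen. In order of rising Gfap, from KC916RRL, KC935LL, KC888LL, KC893RL, KC934R, KC873RR and KC913RR to KC872RL, Reln measured 127, 126, 131, 169.6, 172, 141, 169.8 and 167 CPM. Lamp5 measured 25.7, 25.1, 25.9, 18.01, 19.0, 18.3, 16.6 and 20.5 CPM in the same order. Reln was lowest and Lamp5 highest in the 3 libraries with the least Gfap, among them KC888LL, whose Kcna1 level does not match its label. Per doubling of Gfap the log2 level differed by 0.13 ± 0.04 (SE) for Reln (edgeR, adjusted p = 0.114), -0.17 ± 0.05 for Lamp5 (adjusted p = 0.105), -0.10 ± 0.03 for Erbb4 (adjusted p = 0.0993) and -0.11 ± 0.04 for Pvalb (adjusted p = 0.262). Calb2 was at -0.04, Lhx6 at -0.02, Ndnf at 0.0021 and Cnr1 at 0.00086. Of the reference genes for GABAergic neurons, Gad2 was at 0.15 ± 0.04 (edgeR, adjusted p = 0.101), Gad1 at 0.07 (adjusted p = 0.341) and Slc32a1 at -0.03 (adjusted p = 0.766). None of the 8 members was called, where 1.77% of tested genes were, and 4 had an unadjusted p under 0.05, where 16.1% of tested genes did.

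The relation to Gfap depended on the libraries. Without KC893RL, Reln and Lamp5 were called (edgeR, adjusted p = 0.0374 and 0.0465), as were 2.4% of tested genes. Without KC888LL the slopes were 0.12 for Reln (edgeR, adjusted p = 0.241), -0.14 for Lamp5 (adjusted p = 0.275) and -0.09 for Erbb4 (adjusted p = 0.252). In that fit 0 members were called, where 0.727% of tested genes were. Without the 2 libraries farthest from the median Gfap, KC872RL and KC916RRL, the slopes were 0.13 for Reln (adjusted p = 0.550) and -0.23 for Lamp5 (adjusted p = 0.235). Over the 8 wild type libraries, in which Gfap covered only 294 to 390.4 CPM, the same fit gave slopes of the opposite sign for Reln, -1.04 ± 0.29 (SE, edgeR, adjusted p = 0.779), and of the same sign for Pvalb, -0.96 ± 0.35 (adjusted p = 0.925), and Lamp5, -1.20 ± 0.57 (adjusted p = 0.999). There 0 members were called, where 0% of tested genes were, and 2, Reln and Pvalb, had an unadjusted p under 0.05, where 4.43% of tested genes did. Of the wild type libraries, KC900RLL had the lowest Gfap, at 294 CPM, and the highest Reln and Lamp5, at 155 and 38.7 CPM. The wild type fit was not repeated without this library. The difference in slope between genotypes was not tested.

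**Figure D4:**
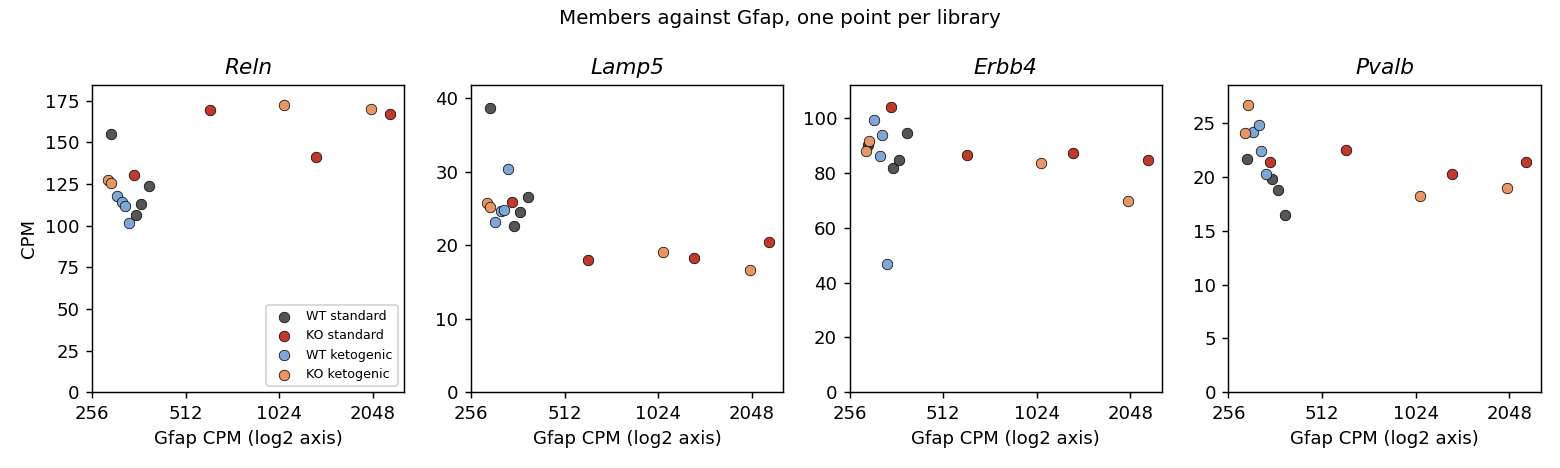
CPM of Reln, Lamp5, Erbb4 and Pvalb (linear axes from 0) against CPM of Gfap (log2 axis) in 16 libraries, coloured by group. The wild type libraries lie within 294 to 390.4 CPM of Gfap. Among the libraries labelled knockout, Lamp5 is 25.1 to 25.9 CPM in the 3 with the least Gfap. These include KC888LL, whose Kcna1 level does not match its label. In the others Lamp5 is 16.6 to 20.5 CPM.

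Genes most like each member over the 16 libraries were found by Pearson's r of log2 CPM among 15413 genes, as a description without a test, since the highest of many values is shown and the libraries share group, depth and tissue makeup. Reln was most like Necab1 (r = 0.96, Spearman's rho = 0.91) and Camk2d (r = 0.92, rho = 0.87). Calb2 was most like Smoc1 (r = 0.92, rho = 0.87) and Tmem255a (r = 0.89, rho = 0.86). For Lhx6 they were Prrt3 (r = 0.92) and Vipr1 (r = 0.89), for Lamp5 Phf24 (r = 0.89) and Neurl1b (r = 0.88), for Cnr1 Kif21a and Cers6 (r = 0.88 for both), for Pvalb Mccc1 (r = 0.86) and Rnf207 (r = 0.81), and for Ndnf Slc25a17 (r = 0.80) and Ccdc18 (r = 0.78). Erbb4 was most like Rif1 (r = 0.92) and Dgkh (r = 0.90), values that were 0.76 and 0.27 without the 2 libraries farthest from the median Erbb4. For the other genes named here, r without the 2 farthest libraries was between 0.60 and 0.95.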

How the data were processed

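The authors deposited 1 table of raw counts per gene with 1 column per library; per the submitters' processing notes the genome was mm10 and DESeq2 was used. The aligner, the counting program and the use of strand were not given in the sources used here. Columns carried an animal tag and a group but no replicate number, so libraries are named by tag. Positions and exon lengths are those of GENCODE M21 on GRCm38, matched by identifier.

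The tests on counts used edgeR (4.0.16, R 4.3.3): filterByExpr by group, TMM factors, a robust quasi-likelihood fit with 1 coefficient per group over 16 libraries (12 residual degrees of freedom), two-sided F tests, and Benjamini-Hochberg adjustment over the 17469 tested genes. A gene is called at an adjusted p under 0.05. Standard errors come from the F statistic. CPM used effective library sizes, and log2 CPM a prior count of 2. The scripts were tested on simulated data.

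All members, all general GABAergic enzymes (Gad1, Gad2, Slc32a1) and called genes of the related lists were named, otherwise at most 3 genes of smallest p per list; for likeness, the 2 genes of highest r with a mean of at least 1 CPM. The members and lists were chosen with earlier results of these data known. Alternatives were other size factors, filters, DESeq2 1.42.0, limma-voom (limma 3.58.1), only the groups compared, Xist as covariate, and leaving out single libraries. Added after seeing the data were fits without the libraries that express Y-linked genes, without KC888LL and KC846L, and the fits on Gfap.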

Additional observations from a re-analysis of the deposited data

Results flagged for a closer look

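In 4 of 48 sets of 4 libraries, a member, a general GABAergic gene or Kcna1 had 1 library far from the other 3, a state that chance gives in about 1 in 20 sets. Lhx6 was lowest in KC846L among the wild type libraries on the ketogenic diet, at 17.1 CPM. Erbb4 was highest in KC888LL among the knockout libraries on the standard diet, at 104 CPM. Kcna1 was highest in KC894RLL among the wild type libraries on the standard diet, at 129.7 CPM. Kcna1 was also highest in KC888LL among the libraries labelled knockout on the standard diet, at 82.0 CPM. The cause was not tested for any of these.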

How the results depend on the processing

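No paired analysis was possible because the columns carry no replicate number. Of 536 values of the members in other fits with a test, 507 kept their direction and their side of the threshold, as did 593 of 640 with 1 library left out. Of 56 values as a ratio to Gad1, Gad2 and Slc32a1, which have no test, 12 changed sign and 16 moved by more than 1 SD; the causes of the changes below were not tested. Members called by edgeR, 0 in all 7 contrasts, were 1 for the diet in the knockout on the groups compared alone and 2 without KC888LL and KC846L, where 6.96% of tested genes were called. DESeq2 called 1 there, 2 for the knockout averaged over diets and 1 for the diet averaged over genotypes, where limma-voom called 1. With 1 library left out the count ranged from 0 to 1 in these 3 contrasts, with 1 reached without KC888LL in the first and second and without KC900RLL in the third, and from 0 to 2 for the relation to Gfap, with 2 reached without KC893RL.

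Members that were not called changed sign as follows, on the log2 scale. For the knockout on standard diet, Cnr1 was 0.0077 with upper-quartile factors, 0.019 with Xist as a covariate and 0.067 without the libraries that express Y-linked genes, and Erbb4 was -0.029 without KC888LL and KC846L. For the knockout on ketogenic diet, Erbb4 was -0.024 with Xist as a covariate, and Lhx6 and Erbb4 were -0.0056 and -0.16 without the Y-linked libraries and -0.0095 and -0.16 without KC888LL and KC846L. For the diet in wild type, Erbb4 was 0.11 without the Y-linked libraries and 0.083 without KC888LL and KC846L. For the diet in the knockout, Pvalb was -0.058 with Xist, and Lamp5 and Cnr1 were -0.031 and -0.012 without the Y-linked libraries. For the interaction, Erbb4 was 0.046 with limma-voom, and Cnr1 was -0.012 with Xist and -0.048 without the Y-linked libraries. For the knockout averaged over diets, Erbb4 was -0.0012 without the Y-linked libraries, and Erbb4 and Cnr1 were -0.095 and -0.015 without KC888LL and KC846L. For the diet averaged over genotypes, Erbb4 was 0.017 without KC888LL and KC846L. Without the 2 libraries farthest in Gfap, the slopes of Lhx6 and Ndnf were 0.016 and -0.020.

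With 1 library left out, these ranges crossed 0. For the knockout on standard diet they were -0.048 to 0.018 for Cnr1 and -0.032 to 0.085 for Erbb4. On ketogenic diet they were -0.16 to 0.14 for Erbb4, -0.035 to 0.13 for Lhx6, -0.036 to 0.021 for Ndnf and -0.16 to 0.022 for Pvalb, and averaged over diets -0.012 to 0.028 for Cnr1, -0.060 to 0.092 for Erbb4 and -0.0016 to 0.089 for Pvalb. For the diet in wild type they were -0.22 to 0.084 for Erbb4 and -0.21 to 0.072 for Lamp5. In the knockout they were -0.029 to 0.19 for Lamp5, -0.070 to 0.12 for Pvalb and -0.11 to 0.042 for Reln, and averaged over genotypes -0.077 to 0.066 for Lamp5. For the interaction they were -0.35 to 0.018 for Calb2, -0.20 to 0.10 for Erbb4 and -0.011 to 0.31 for Lamp5. The slopes on Gfap ran from -0.023 to 0.024 for Cnr1, -0.13 to 0.063 for Lhx6 and -0.019 to 0.021 for Ndnf.

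Counts of the members ran from 248 to 5764 per library, and each group had 4 libraries.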
